A study of Mus musculus with 6 samples.

Results

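Interferon-gamma inducible GTPases and the transcription factor gene Irf1 were described in mouse frontal cortex with and without astrocytic IL6. The 9 genes were Gbp3, Gbp4, Gbp5, Gbp6, Gbp7, Igtp, Irgm1, Irgm2 and Irf1, taken by their symbols from a table of 33000 genes, in which 10 rows carried these symbols because Gbp6 had 2. Illumina TruSeq mRNA libraries were made from mice aged 3 months, 3 libraries from homozygotes of the GFAP-IL6 transgene (titled HOM-ctx) and 3 from wild type (WT-ctx). The strain that the study's text names for the wild type is C57BL/6. In GFAP-IL6 mice the promoter of Gfap, a filament gene of astrocytes, drives IL6, so the cytokine is made inside the brain. The study's text gives 3 mice of each genotype, so the libraries were taken as separate animals.

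Guanylate-binding proteins (GBPs, the Gbp genes) and immunity-related GTPases (IRGs, here the regulatory members Igtp, Irgm1 and Irgm2) are GTP-hydrolysing proteins. Some members of both families coat and break open vacuoles of intracellular microbes. Interferon-gamma binds its receptor, and the kinases Jak1 and Jak2 pass the signal on. The signal reaches GAS elements in promoters of genes of both families and of Irf1. The Irf1 protein is itself a transcription factor that binds IRF elements, often next to GAS elements, in the same promoters. In brain, microglia, astrocytes and endothelial cells can all raise these genes in response to interferon.

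Library totals were 11591066, 16877001 and 16122030 counts for WT and 11072008, 7559524 and 8860654 counts for GFAP-IL6, so every GFAP-IL6 library was shallower than every WT library. Il6 itself held 0, 2 and 0 counts across the WT libraries but 12, 10 and 24 across those of GFAP-IL6, the direction that the labels give. Levels are given below in counts-per-million (CPM) scaled by TMM, a normalization that sets aside the most changed genes, and a floor of 3 counts corresponded to between 0.179 and 0.396 CPM. Fold changes are log2 ratios of GFAP-IL6 over WT with their standard errors from edgeR's quasi-likelihood test, and adjusted p-values were corrected by the Benjamini-Hochberg method over the 15341 genes that passed the low-count filter. Of the 9 genes, 8 passed that filter and Gbp6 did not.

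Gbp7 rose in the GFAP-IL6 cortex, while Gbp5, Irgm1, Irgm2 and Irf1 were higher in every GFAP-IL6 library than in any WT library without passing the threshold over all genes. Of the 8 genes tested, 1 had an adjusted p under 0.05 in edgeR (Gbp7, higher), against 2.86% of all genes tested in either direction and 2.65% in the higher direction. With the study's added requirement of an absolute log2 fold change over 1, the count was 0 of 8, against 1.38% of all genes. In 5 of 8 all 3 GFAP-IL6 libraries lay above all 3 WT libraries, which held for 13.8% of all genes tested. The same 5 genes had an unadjusted edgeR p under 0.05 in the higher direction, against 11.1% of all genes. The fold change was above 0 in 6 of 8, with a median of 0.48 on the log2 scale against a median of -0.00 over all genes. The remaining 3 genes tested (Gbp3, Gbp4 and Igtp) had groups that overlapped. Because the tissue is a bulk sample, a change in the number of cells of a type and a change in RNA per cell cannot be told apart.

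**Figure D1:**
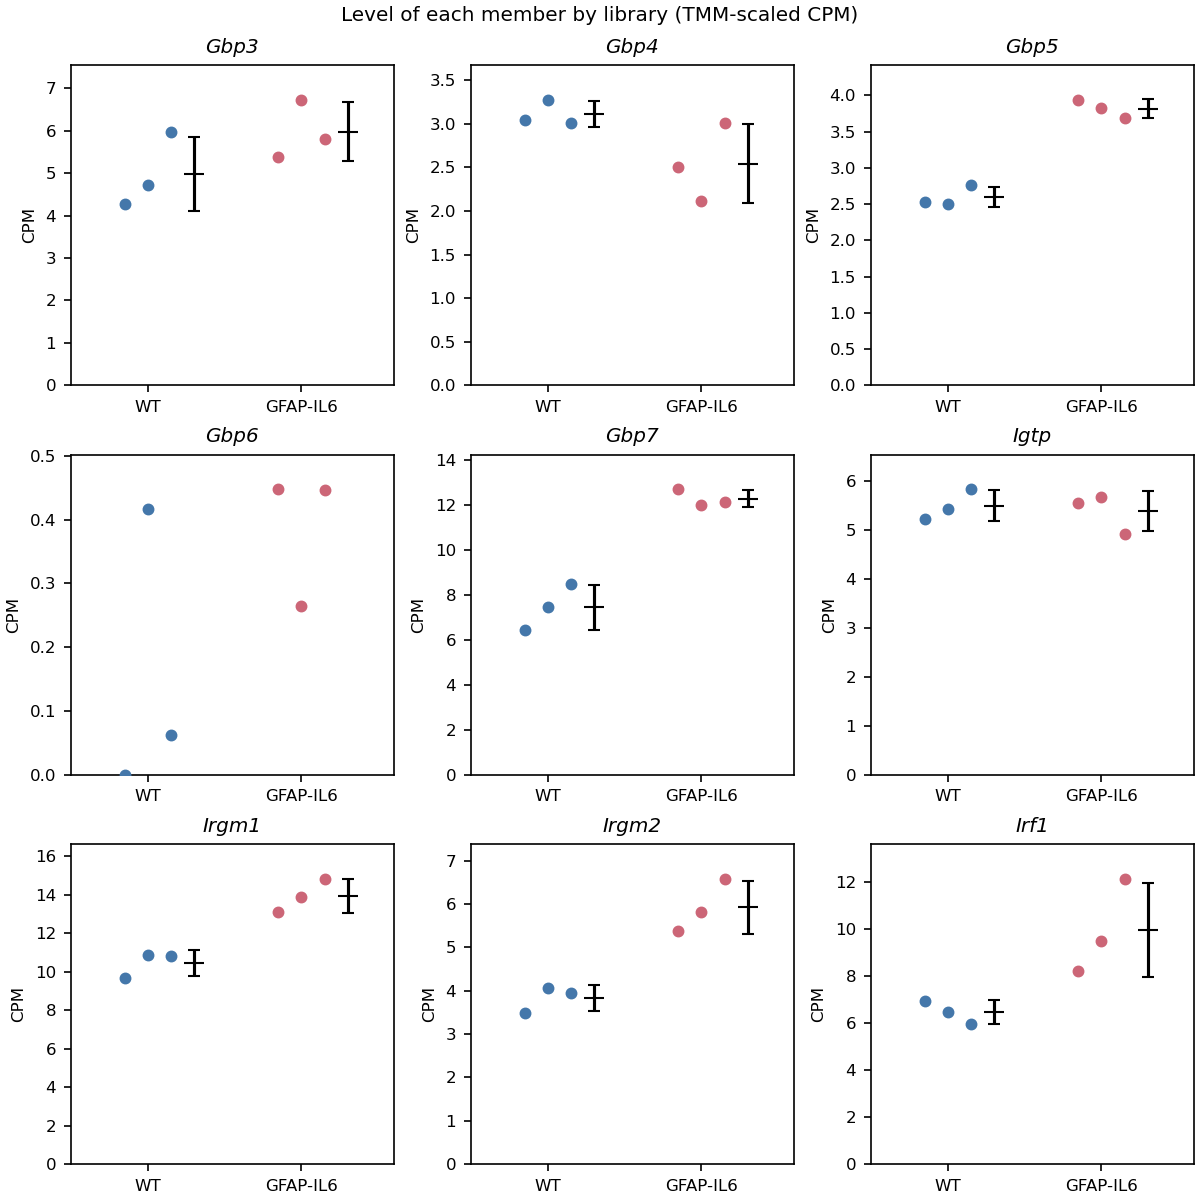
TMM-scaled CPM (vertical axis, from 0, scaled per gene) of the 9 genes in each WT library (blue) and each GFAP-IL6 library (red), with the mean and SD of 3 libraries as black bars except for Gbp6, which was not tested. Gbp5, Gbp7, Irgm1, Irgm2 and Irf1 show no overlap between the groups, whereas Gbp3, Gbp4, Gbp6 and Igtp overlap.

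Irf1, the transcription factor of the set, is induced early by interferon-gamma and also by other cytokines. It lies on chromosome 11 (53770014 to 53778374, plus strand, gene positions are those of GENCODE M21 on GRCm38, the assembly also called mm10). Its levels were 6.97, 6.50 and 5.96 CPM in WT and 8.25, 9.51 and 12.2 CPM in GFAP-IL6. The groups did not overlap, and the spread was wider in the GFAP-IL6 libraries (9.97 ± 2.002, SD, n = 3) than in WT (6.48 ± 0.502). The log2 fold change was 0.62 ± 0.17 (SE, 95% interval 0.25 to 0.99), with an edgeR adjusted p of 0.0803, so Irf1 did not pass the threshold over all genes. Its adjusted p reached 0.019 when no low-count filter was applied, a setting in which 5.1% of all genes tested passed the threshold. A predicted gene on the opposite strand, Gm17334, overlaps 135 exon bases of Irf1, and the strand setting of the counting is not given in the sources used here.

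Gbp7 had the clearest difference. It encodes a guanylate-binding protein and lies on chromosome 3 (142530342 to 142550149, plus strand), between Gbp5 and Gbp3. Its levels were 6.45, 7.46 and 8.48 CPM in WT and 12.7, 12.02 and 12.2 CPM in GFAP-IL6. The lowest GFAP-IL6 library was well above the highest WT library, and the GFAP-IL6 libraries were close to each other (12.3 ± 0.375 CPM, against 7.46 ± 1.02 in WT, SD, n = 3). The log2 fold change was 0.71 ± 0.14 (SE, 95% interval 0.40 to 1.03, edgeR adjusted p = 0.0157), which placed Gbp7 at rank 274 by p among all genes tested. With any single GFAP-IL6 library left out its adjusted p was above the threshold, at fold changes of 0.69 without replicate 1 and 0.73 without replicate 2 or replicate 3. Of the 50-base stretches of its transcripts, 12.7% also occur in transcripts of other genes, mostly of the predicted gene Gm43802, so some of its reads could have been split or dropped.

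The sequence upstream of Irf1 and Gbp7 was searched for the letters of the elements named above. RefSeq promoter windows (GRCm38.p6, from 250 bases before to 50 bases after each transcription start) were matched for 7 of the 9 genes, in 9 windows because Gbp3 and Irf1 each have 2 starts. The letters searched on both strands were TTCNNNGAA for GAS and GAAANNGAA for an IRF core. The first Irf1 window (chr11:53769764-53770013, plus strand) and the Gbp7 window (chr3:142530086-142530335, plus strand) are printed 5′ to 3′ because these genes are the transcription factor of the set and its called member. Only the 250 bases before the start are shown, with GAS and IRF core matches in capitals.
Irf1: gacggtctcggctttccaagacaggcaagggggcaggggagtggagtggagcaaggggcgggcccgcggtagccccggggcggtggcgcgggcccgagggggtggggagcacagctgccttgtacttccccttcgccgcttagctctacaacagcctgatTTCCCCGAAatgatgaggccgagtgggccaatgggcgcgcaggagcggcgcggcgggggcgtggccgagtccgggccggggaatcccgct
Gbp7: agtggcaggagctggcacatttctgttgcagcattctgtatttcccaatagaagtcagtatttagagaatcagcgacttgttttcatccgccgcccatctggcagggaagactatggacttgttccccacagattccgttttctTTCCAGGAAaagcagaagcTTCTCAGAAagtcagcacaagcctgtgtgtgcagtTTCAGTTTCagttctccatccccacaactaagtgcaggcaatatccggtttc
The first Irf1 window held 1 GAS match, 90 to 82 bases before the start, and no IRF core in its 300 bases. The second Irf1 window, not printed, held no match to either motif. Gbp7 held GAS matches 106 to 98 and 87 to 79 bases before the start and an IRF core 52 to 44 bases before it, where the letters read TTCAGTTTC on the printed strand.

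The neighbours of Gbp7 on chromosome 3 had smaller fold changes. Gbp5, whose protein assembles in coats on microbial membranes and is known to promote inflammasome activation, lies upstream of Gbp7 (142493978 to 142522344, plus strand). Its levels were 2.53, 2.51 and 2.76 CPM in WT and 3.94, 3.83 and 3.68 CPM in GFAP-IL6. The groups did not overlap and both were tight, but each library held only between 29 and 44 counts. The log2 fold change was 0.55 ± 0.21 (SE, 95% interval 0.10 to 1.004) with an edgeR adjusted p of 0.170. Gbp3, on the other side of Gbp7 (142560026 to 142573209, plus strand), had 4.27, 4.71 and 5.96 CPM in WT and 5.38, 6.73 and 5.81 CPM in GFAP-IL6. The highest WT library lay above the GFAP-IL6 libraries of replicates 1 and 3, and the log2 fold change of 0.24 ± 0.19 (SE, 95% interval -0.18 to 0.66) had an edgeR adjusted p of 0.496.

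Since Gbp7 and Gbp3 sit side by side, their counts were also compared within each library, a comparison chosen after the values were seen. The ratio of Gbp7 to Gbp3 counts was 1.51, 1.58 and 1.42 in WT and 2.37, 1.78 and 2.10 in GFAP-IL6. Every GFAP-IL6 ratio exceeded every WT ratio. The mean difference was 0.46 on the log2 scale, with a two-sided exact permutation p of 0.1, which is the smallest p that 3 libraries against 3 allow.

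Gbp4 and Gbp6 belong to a second cluster of GBP genes, on chromosome 5. Gbp4 (105115767 to 105139586, minus strand) was the single GBP member tested with a fold change below 0. It had 3.05, 3.28 and 3.01 CPM in WT and 2.51, 2.11 and 3.01 CPM in GFAP-IL6. GFAP-IL6 replicates 1 and 2 lay below all WT libraries and replicate 3 was level with the lowest of them. The log2 fold change was -0.28 ± 0.23 (SE, 95% interval -0.78 to 0.21, edgeR adjusted p = 0.502), so Gbp4 did not pass the threshold in either direction. Gbp6 (105270702 to 105293698, minus strand) was close to the detection limit. The row that the annotation also calls Gbp6 held 0, 7 and 1 counts across the WT libraries against 5, 2 and 4 in those of GFAP-IL6. The other row with that symbol, now annotated as Gm43302, held 0 counts in all 6 libraries, and 100% of its 50-base stretches occur in other genes. For the first row the share was 70.7%. Gbp6 reads cannot be assigned with confidence at this depth, and a difference between genotypes was not detectable.

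Among the IRG members, Irgm1 and Irgm2 were higher in every GFAP-IL6 library and Igtp was not. Irgm1 and Irgm2 encode IRGM proteins, which regulate the other IRGs and keep them off the membranes of the cell's own organelles. Irgm1 (chromosome 11, 48861968 to 48871683, minus strand) had 9.67, 10.9 and 10.8 CPM in WT and 13.1, 13.9 and 14.8 CPM in GFAP-IL6. The groups did not overlap. Its log2 fold change was 0.41 ± 0.12 (SE, 95% interval 0.14 to 0.68), with an edgeR adjusted p of 0.107. Irgm2 (chromosome 11, 58199618 to 58222782, plus strand) had 3.48, 4.06 and 3.96 CPM in WT and 5.38, 5.81 and 6.59 CPM in GFAP-IL6. Here too every GFAP-IL6 library was above every WT library, and the log2 fold change was 0.62 ± 0.18 (SE, 95% interval 0.22 to 1.02, edgeR adjusted p = 0.101).

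Igtp encodes Irgm3, another regulatory IRG, found on lipid droplets and the endoplasmic reticulum. Its gene spans chromosome 11 from 58199556 to 58207591 on the plus strand, and the annotated Irgm2 starts within its first exon. Its levels were 5.23, 5.43 and 5.84 CPM in WT and 5.56, 5.68 and 4.91 CPM in GFAP-IL6. All 3 GFAP-IL6 libraries lay within or below the WT range. The log2 fold change was -0.03 ± 0.17 (SE, 95% interval -0.41 to 0.34, edgeR adjusted p = 0.931). The fitted value of Irgm2 lay above the upper end of this interval, but the intervals of the genes overlapped (Irgm2 0.22 to 1.02).

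Igtp and Irgm2 share sequence at their starts and were compared within each library. The ratio of Irgm2 to Igtp counts, again chosen after the values were seen, was 0.667, 0.747 and 0.677 in WT. In the GFAP-IL6 libraries it was 0.968, 1.02 and 1.34, and every one of these exceeded every WT ratio. The difference was 0.66 on the log2 scale (two-sided exact permutation p = 0.1, the smallest that the design allows) and ranged from 0.52 to 0.75 when each library was left out in turn. In the annotation the genes share 162 exon bases on the same strand, and 11.8% of the 50-base stretches of Igtp transcripts occur in Irgm2 transcripts. Reads from this shared exon could have been left uncounted or assigned to either gene, and the part of this in the ratio was not tested.

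**Figure D2:**
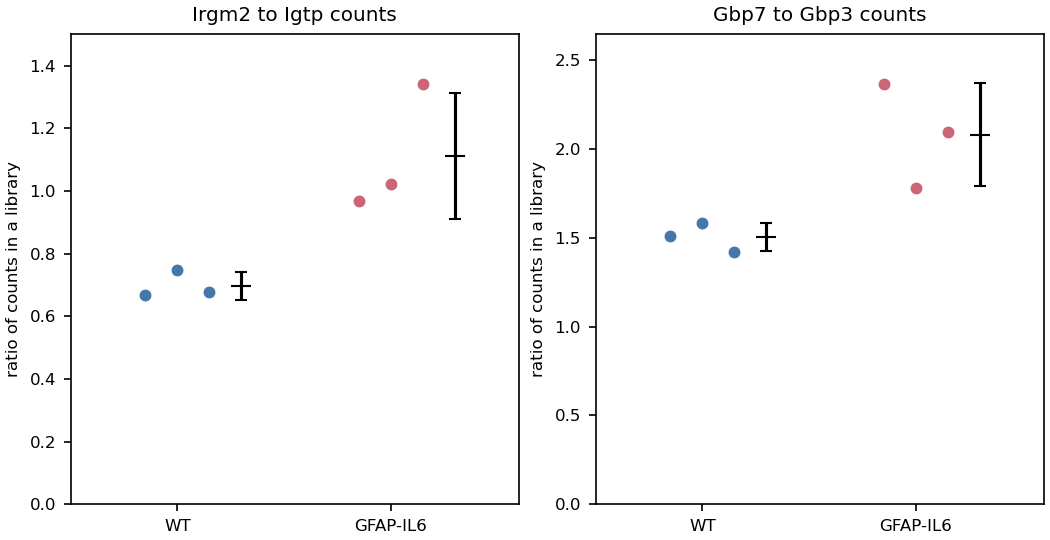
Ratio of counts (vertical axis, no unit, from 0) of Irgm2 to Igtp (left) and of Gbp7 to Gbp3 (right) in each WT library (blue) and GFAP-IL6 library (red), with the mean and SD of 3 libraries in black. Irgm2 to Igtp runs from 0.667 to 0.747 in WT and from 0.968 to 1.34 in GFAP-IL6, and in both panels the groups do not overlap.

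The upstream sequences of Igtp (chr11:58199306-58199555, plus strand) and Irgm2 (chr11:58214727-58214976, plus strand) are printed because they resemble each other, while the groups overlapped for Igtp and not for Irgm2. The RefSeq start of Irgm2 lies inside the GENCODE span of the gene, which begins at 58199618. Reads of transcripts from that earlier start were not told apart from others of Irgm2. Sequences run 5′ to 3′, end at the base before the RefSeq start, and have GAS and IRF core matches in capitals.
Igtp: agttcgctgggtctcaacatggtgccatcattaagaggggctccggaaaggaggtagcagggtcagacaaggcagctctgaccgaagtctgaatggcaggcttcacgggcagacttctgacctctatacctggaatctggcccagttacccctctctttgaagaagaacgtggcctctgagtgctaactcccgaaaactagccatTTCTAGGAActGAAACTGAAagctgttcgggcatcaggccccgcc
Irgm2: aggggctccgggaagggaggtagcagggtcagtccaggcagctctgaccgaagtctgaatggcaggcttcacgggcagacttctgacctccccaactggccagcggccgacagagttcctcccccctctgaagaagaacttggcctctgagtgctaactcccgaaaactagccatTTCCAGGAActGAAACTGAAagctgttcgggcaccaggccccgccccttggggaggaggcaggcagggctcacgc
A global alignment of the 250 bases, with gaps at the ends left free, paired 214 positions, of which 197 were identical (92.1%). The 33 other pairs of upstream sequences from different genes of the set had between 60.9% and 78.1% identity over the aligned part. Igtp held a GAS match 45 to 37 bases and an IRF core 34 to 26 bases before its start. In Irgm2 the same pair stood 75 to 67 bases and 64 to 56 bases before the start. Both genes thus hold both motifs, in the same order.

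Across the set, GAS letters were present in 5 of the 9 windows, those of Gbp5, Gbp7, Irf1, Igtp and Irgm2, against 8.30% of 32851 RefSeq windows of 300 bases. IRF core letters were present in 6 of the 9 windows, against 8.56% of all windows, and here the genes were Gbp3, Gbp5, Gbp7, Irgm1, Igtp and Irgm2. Gbp5 had GAS matches 245 to 237 and 52 to 44 bases before its start and an IRF core 164 to 156 bases before it. Gbp3 and Irgm1 each held a pair of overlapping IRF cores and no GAS match. These matches describe letters in the windows and not bound sites, and binding of any factor was not measured.

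**Figure D3:**
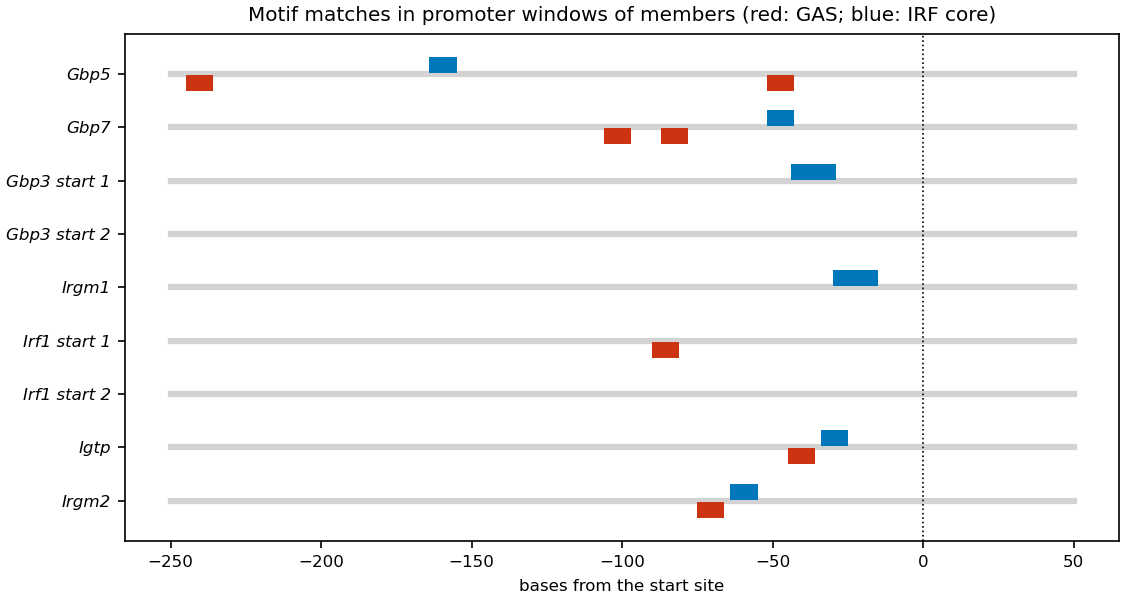
Positions of GAS letters (red, below each line) and IRF core letters (blue, above each line) along the 9 RefSeq promoter windows (grey, one line per start site) in bases from the transcription start (dotted line, horizontal axis). All matches lie upstream of the start, and Gbp5, Gbp7, Igtp and Irgm2 carry a GAS match 5′ of an IRF core.

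Levels of different genes were compared per transcript length, in transcripts-per-million (TPM). In WT the order was Irgm1 (12.8 ± 0.546 TPM, SD, n = 3), Igtp (7.55 ± 0.426), Irf1 (5.39 ± 0.512), Gbp3 (4.53 ± 0.788), Gbp7 (3.68 ± 0.469), Irgm2 (2.93 ± 0.162), Gbp5 (2.36 ± 0.153), Gbp4 (1.90 ± 0.052) and Gbp6 (0.166). The libraries overlapped between the neighbours Irf1 and Gbp3 and between Gbp3 and Gbp7, so those places in the order are not separated. In GFAP-IL6 the order was Irgm1 (18.0 ± 1.02 TPM), Irf1 (8.71 ± 1.70), Igtp (7.76 ± 0.612), Gbp7 (6.39 ± 0.258), Gbp3 (5.70 ± 0.615), Irgm2 (4.77 ± 0.465), Gbp5 (3.65 ± 0.153), Gbp4 (1.64 ± 0.291) and Gbp6 (0.433). Here the overlapping neighbours were Irf1 and Igtp, Gbp7 and Gbp3, and Gbp3 and Irgm2. Irgm1 was the highest of the set in both genotypes. TPM values shifted the median log2 ratio of all genes by 0.07 relative to TMM-scaled CPM.

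The other genes of both GTPase families were mostly too low to test. Of 6 further GBP genes in the table, 2 were tested and 0 passed an adjusted p of 0.05 in edgeR, with 1 at an unadjusted p under 0.05. Gbp2, a GBP of the chromosome 3 cluster, had 2.53, 3.28 and 2.89 CPM in WT and 4.12, 3.57 and 5.36 CPM in GFAP-IL6. These groups did not overlap, at a log2 fold change of 0.58 ± 0.22 (SE, edgeR adjusted p = 0.182). Gbp9, of the chromosome 5 cluster, had a log2 fold change of -0.11 ± 0.26 (SE, edgeR adjusted p = 0.848) and overlapping groups. Gbp2b was at 0 in all 6 libraries, Gbp10 had at most 1 count in any library, and Gbp8 and Gbp11 reached 5 and 7 counts.

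Of 10 further IRG genes in the table, 3 were tested and 0 were called by edgeR, with 1 at an unadjusted p under 0.05. Iigp1, an effector IRG, had a log2 fold change of 0.49 ± 0.29 (SE, edgeR adjusted p = 0.350), and Irgq, a family member not known as an interferon target, had 0.07 ± 0.09 (adjusted p = 0.691). The annotated gene 9930111J21Rik2 had 1.15 ± 0.42 (SE, edgeR adjusted p = 0.157) with overlapping groups, and 59.8% of its 50-base stretches occur in other genes. Ifi47 had 5, 14 and 11 counts across the WT libraries against 7, 8 and 9 in those of GFAP-IL6. The near-identical Tgtp1 and Tgtp2 had at most 3 and 8 counts, 9930111J21Rik1 at most 8, Irgc1 8, Gm4951 7 and F830016B08Rik 6 counts in any library.

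The signalling genes upstream of the set were measured in the same libraries. Ifng, which encodes interferon-gamma and is made by T and NK cells, had 0 counts in all 6 libraries, which allows up to 3 counts in each, or between 0.179 and 0.396 CPM by counting error alone. Of 6 other signalling genes tested, 1 was called higher by edgeR and 0 lower. Ifngr1, the ligand-binding receptor chain, had 11.7, 14.0 and 16.1 CPM in WT and 20.9, 25.2 and 27.7 CPM in GFAP-IL6. It rose by 0.81 ± 0.14 on the log2 scale (SE, edgeR adjusted p = 0.00662), with no overlap between the groups, and the list had 0 calls without GFAP-IL6 replicate 3. The second receptor chain, Ifngr2, had a log2 fold change of 0.11 ± 0.08 (SE, edgeR adjusted p = 0.452).

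The kinase genes Jak1 (-0.04 ± 0.08 on the log2 scale) and Jak2 (0.09 ± 0.10) and the negative regulators Ptpn2 (-0.10 ± 0.10) and Pias1 (0.02 ± 0.09) had intervals that included 0. Socs1, the feedback inhibitor of this pathway, was under the filter at between 0.348 and 1.01 CPM.

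Among the 7 other IRF factors tested, 2 were called by edgeR, both higher. Irf8, a factor of microglia and macrophages, had 5.05, 4.53 and 4.14 CPM in WT and 10.2, 12.3 and 13.7 CPM in GFAP-IL6. It rose by 1.40 ± 0.17 on the log2 scale (SE, edgeR adjusted p = 0.000389). Irf9, the DNA-binding part of the type I interferon complex ISGF3, rose by 0.68 ± 0.13 on the log2 scale (SE, edgeR adjusted p = 0.012). Without GFAP-IL6 replicate 2 the list had 1 call, and without the low-count filter 5. Irf7 (1.05 ± 0.30), Irf3 (0.51 ± 0.14) and Irf5 (0.44 ± 0.11) had fold changes above 0 with edgeR adjusted p-values of 0.0852, 0.0797 and 0.0614.

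Other targets of interferon-gamma include antigen presentation genes and chemokines. Of 12 in the table, 7 were tested and 2 were called higher by edgeR. These were Psmb8, an immunoproteasome subunit (1.23 ± 0.22 on the log2 scale, SE, adjusted p = 0.00673), and Nlrc5, the transactivator of MHC class I genes (1.42 ± 0.30, adjusted p = 0.0234). Ciita (0.72 ± 0.22), Cd274 (0.72 ± 0.28), Psmb9 (0.78 ± 0.31) and Tap1 (0.70 ± 0.26) had an unadjusted edgeR p under 0.05 without passing the adjusted threshold. The list had 1 call instead of 2 without WT replicate 3, GFAP-IL6 replicate 1 or GFAP-IL6 replicate 3, or with counts thinned to the smallest library. Psmb10 had -0.03 ± 0.09. The chemokine genes Cxcl9 and Cxcl10, which are strongly induced by interferon-gamma, were not tested because no library exceeded 0.396 CPM for Cxcl9 or 0.558 CPM for Cxcl10.

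**Figure D4:**
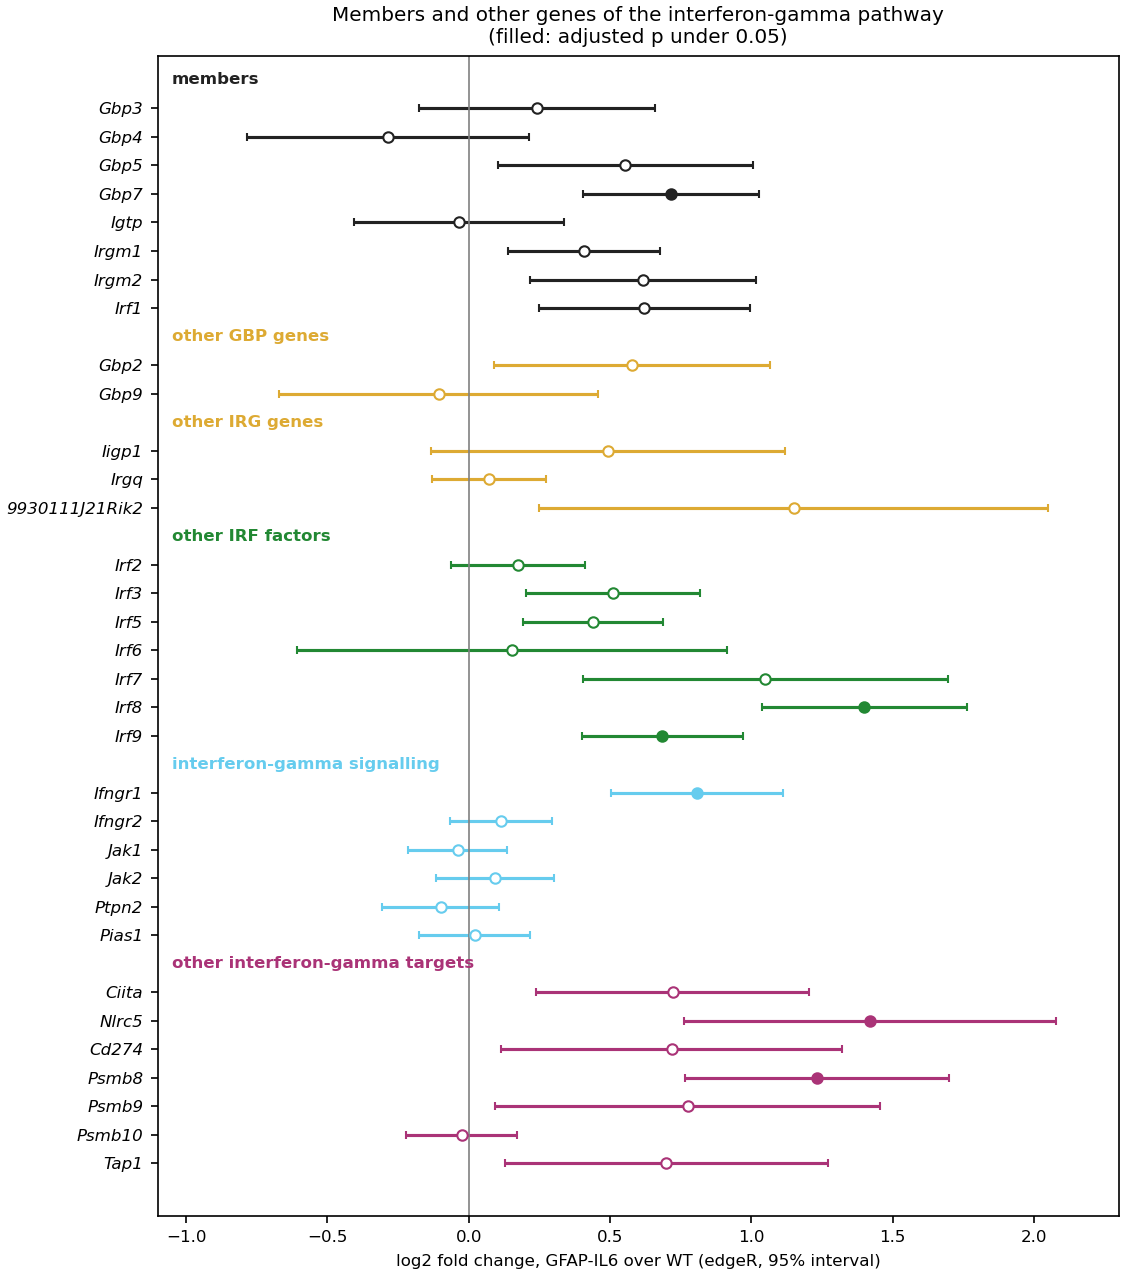
log2 fold change of GFAP-IL6 over WT (horizontal axis) with its 95% interval from edgeR, for the 8 genes of the set that were tested and for the tested genes of 5 related lists, 3 libraries a group. Filled points have an adjusted p under 0.05, which among the 8 genes of the set holds for Gbp7 (0.71).

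Interferons of type I can raise the same GTPases. Ifnb1, Ifna1, Ifna2 and Ifna4 had 0 counts in all libraries. The receptor and signalling genes Ifnar1, Ifnar2, Stat2 and Tyk2 had log2 fold changes between 0.21 and 0.45, each with an unadjusted edgeR p under 0.05 and none with an adjusted p under 0.05. Of 8 type I interferon targets tested, 0 were called by edgeR and 2 had an unadjusted p under 0.05, with a list median of 0.17 on the log2 scale, and up to 2 were called under other settings. These 2 were Oasl2 (1.19 ± 0.29 on the log2 scale, edgeR adjusted p = 0.0519) and Usp18 (1.25 ± 0.42, adjusted p = 0.131), both with no overlap between the groups and with fitted values above those of all 8 genes of the set. Isg15 (0.14 ± 0.25) and Ifit1 (0.19 ± 0.26) had intervals that included 0. On the IL6 side, 7 of the 10 genes of the IL6-STAT3 list tested were called higher by edgeR (Il6, Il6ra, Stat3, Socs3, Osmr, Cebpd and Bcl3), at a list median of 1.16. Il6, which the transgene itself drives, is included in this count and in the median.

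Genes that act together with these GTPases were also counted. The list of ubiquitin-like conjugation genes of autophagy, which guide IRG and GBP proteins to vacuoles, also held Sqstm1, which is not a conjugation gene. The list gave 0 calls among 11 tested in edgeR. Of these, 3 (Gabarapl1, Map1lc3a and Sqstm1) had an unadjusted edgeR p under 0.05, all with lower levels in GFAP-IL6. Their log2 fold changes were between -0.19 and -0.18, and the list median was -0.15. The share of all genes that were lower at an unadjusted p under 0.05 was not counted. Of 6 inflammasome genes tested, 2 were called higher by edgeR. They were Pycard, the adaptor ASC (1.31 ± 0.22 on the log2 scale, SE, adjusted p = 0.00596), and Gsdmd, the pore-forming gasdermin D (0.92 ± 0.23, adjusted p = 0.0499). The list had 0 calls without GFAP-IL6 replicate 3 and 1 under several other settings, DESeq2 among them. Nlrp3 had 0.64 ± 0.30 and Casp1 0.04 ± 0.27, and neither passed the threshold.

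Most markers of microglia and endothelial cells, which can carry these transcripts, were higher, and those of astrocytes gave no call. Of 6 microglia markers, 4 were called higher by edgeR (Tmem119, Cx3cr1, Csf1r and Fcrls), and the summed level of the 6 was 255 to 305 CPM in the WT libraries and 415 to 498 CPM in the GFAP-IL6 libraries. P2ry12 did not pass, at -0.27 ± 0.14 on the log2 scale. Of 6 endothelial markers, 4 were called higher, and the sum went from 113 to 132 CPM in WT to 194 to 222 CPM in GFAP-IL6, with 2 called when GFAP-IL6 replicate 1 was left out. The list medians on the log2 scale were 0.72 for microglia and 0.64 for endothelial markers, against 0.48 for the set and 0.71 for Gbp7. Single markers such as Csf1r (0.87 ± 0.09) and Cldn5 (0.93 ± 0.14) were above all 8 genes of the set. The part of these cell types in the differences was not tested. Of 6 astrocyte markers, 0 were called in edgeR (1 higher and 1 lower at an unadjusted p under 0.05), with sums of 1852 to 2296 CPM in WT and 1903 to 2263 CPM in GFAP-IL6.

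Most markers of cells that make interferon-gamma were at or near the detection limit. All 7 NK cell markers were at or under the floor in every library, with Prf1 at 0, and none could be tested. Their summed level was 0 to 0.119 CPM in WT and 0.179 to 0.781 CPM in GFAP-IL6, and this difference was not tested. Of 8 T cell markers, 6 were at or under the floor, with Cd3d at 0, and 0 of the 2 tested were called or had an unadjusted edgeR p under 0.05. The summed T cell level was 10.5 to 15.9 CPM in WT and 9.49 to 13.3 CPM in GFAP-IL6. Of 4 B cell and 5 neutrophil markers, 3 each were at or under the floor and 0 were tested. Border macrophage and monocyte markers summed to 6.65 to 10.3 CPM in WT and 7.98 to 12.8 CPM in GFAP-IL6, with 0 of 3 tested called or at an unadjusted p under 0.05. Neuron and oligodendrocyte markers gave 0 calls among 6 tested each, with 2 and 0 lower at an unadjusted edgeR p under 0.05. The neuron sums, whose size fits the labelled cortex, were 6982 to 7397 CPM in WT and 5996 to 6936 CPM in GFAP-IL6, without overlap. The oligodendrocyte sums were 3225 to 5940 CPM in WT and 3246 to 5068 CPM in GFAP-IL6. List medians were -0.06 for neuron and -0.21 for oligodendrocyte markers on the log2 scale. Differences in these sums were not tested.

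The genes whose profile over the 6 libraries was most like the mean of the 8 genes of the set were found by the root mean square difference of log2 CPM, centred on the WT mean. The mean profile was -0.09, 0.01 and 0.07 in WT and 0.30, 0.35 and 0.43 in GFAP-IL6. Among 15021 genes, the closest were Mfap3 (difference 0.028), Mtmr11 (0.038), Eogt (0.040), Hexa (0.045) and Ctsa (0.047). Hexa and Ctsa encode lysosomal enzymes. These differences describe the 6 libraries and were not tested.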

How the data were processed

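Polyadenylated RNA of 6 frontal cortex samples, 3 WT and 3 homozygous GFAP-IL6, was sequenced from TruSeq mRNA libraries, and the methods of the study state RNA integrity numbers above a set limit for all samples. The deposited values are raw read counts per gene, made by the authors with STAR 2.4 on mm10, featureCounts of the Subread package and a GENCODE annotation, without normalization. The processing notes name the build hg19, which the mouse gene identifiers go against. Whether the counting used strand or kept reads shared by several genes is not given in the sources used here.

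Counts were scaled by TMM, filtered with filterByExpr and tested with edgeR 4.0.16 (quasi-likelihood F-test, R 4.3.3), GFAP-IL6 over WT, with Benjamini-Hochberg adjustment over 15341 genes and a threshold of 0.05. Standard errors were taken from the F statistic. The fitting was tested on simulated data. Alternatives were DESeq2 1.42.0, limma 3.58.1 with voom, DESeq2-type size factors, no or another low-count filter, thinning of counts to the smallest library, a replicate block and leaving out each library. TPM used the gene lengths in the table. Depth ran from 7559524 to 16877001 counts per library, so the floors cover counting error only. Gene positions came from GENCODE M21 (GRCm38, 32593 identifiers matched) and promoter windows from RefSeq (GRCm38.p6).

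The members, the 23 gene lists and the tests were chosen with earlier results of these data known. Some genes of the signalling and marker lists are not reported here and were left out of the counts and sums. Named genes were all members, all other genes of the signalling, GBP and IRG lists, called genes or defining members of the other lists, and the 5 genes with the closest profile. Other genes named, and both ratios of neighbouring genes, were chosen after their values were seen.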

Additional observations from a re-analysis of the deposited data

How the results depend on the processing

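Of the 13 alternatives, 9 kept Gbp7 past the threshold. The number of genes of the set past it was 1, and 0 with counts thinned to the smallest library, where Gbp7 had 0.64. It rose to 2 without the low-count filter (Gbp7 and Irf1, the latter at a log2 fold change of 0.62). Of all genes tested, 2.86% were past the threshold in the main fit, 2.58% with thinned counts and 5.1% without the filter. With single libraries left out the number of the set ranged from 0 to 1, and was 0 without any one GFAP-IL6 library. Gbp7 ranged from 0.63 to 0.82 over those fits, with adjusted p-values from 0.018 to 0.085. The median of the set ranged from 0.41 to 0.50. Igtp, which had -0.03, ranged from -0.069 to 0.030, and was above 0 without WT replicate 3 (0.011) or GFAP-IL6 replicate 3 (0.030). The cause of these changes was not tested.

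Over all genes, 439 of 15341 were past the threshold, against 1154 of 22621 without the low-count filter. With single libraries left out, between 187 (without GFAP-IL6 replicate 3) and 1061 (without WT replicate 1) were past it. The genes called in the pathway and marker lists numbered 22, and 14 to 27 with single libraries left out. Replicate numbers were shared between the groups, and the deviations of same-numbered libraries correlated at 0.0996, 0.015 and 0.021. Pairs of unlike number ran from -0.077 to 0.052, and whether a number marks a batch was not tested. With a replicate block 750 genes (4.89%) passed, and Gbp7 was again the member called.

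Depth limits precision, since no gene of the set held more than 182 counts in any library.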
